A study of Mus musculus with 20 samples.

Results

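The 9 genes described here, Pax5, Ms4a1, Cd79a, Cd79b, Cd22, Blk, Bank1, Ebf1 and Cr2, are genes by which B cells are commonly recognised. They were taken by name from a table of 30691 named gene lines measured by RNA sequencing in whole mouse lung. All 9 were found once each in the table, and all 9 passed the filter on low values that left 21658 genes to test. The study crossed genotype with oxygen in 20 libraries, all labelled as 1 batch. There were 5 libraries of VIPKO mice kept in hypoxia (10% oxygen for 4 weeks), 4 of VIPKO mice kept in normoxia (21% oxygen for 4 weeks), 5 of wild-type (WT) C57BL/6 mice in hypoxia and 6 of WT mice in normoxia. VIPKO mice lack the gene for vasoactive intestinal peptide, Vip, by the titles and the design text, whereas the genotype field calls them a knockdown. Neither the age and sex of the animals nor the strain background of the VIPKO mice is given in the labels. Whether each library is from its own animal is not said either, and p-values therefore reflect spread among these samples, which may be technical.

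B cells are lymphocytes that recognise antigen through a membrane immunoglobulin, the B cell receptor. The receptor signals through the CD79A and CD79B chains, whose tails are phosphorylated by kinases of the SRC family such as BLK, and its signal is tuned by coreceptors, among them CD22, which dampens it, and complement receptor 2, which lowers its threshold. The transcription factors EBF1 and PAX5 establish and maintain the B cell programme. In the lung, B cells circulate through the capillary bed and gather around airways and vessels during inflammation. In RNA from a whole organ, fewer B cells and less RNA per B cell cannot be told apart.

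Promoters of several of the 9 genes are shown because the genes moved together and because EBF1 and PAX5 are members themselves. RefSeq promoter windows of 300 bases (GRCm38.p6, 250 bases before to 50 after the annotated start) were found for 6 of the 9 genes, with 2 windows for Ebf1. Motifs were looked for on both strands, and capitals mark the letters that matched. The E-box bound by E2A proteins, CAGGTG, lay in 4 of the 6 genes, Cd79a, Cd22, Bank1 and Cr2, and in 20.21% of all 32851 promoter windows. The EBF palindrome, CCCNNGGG, lay in Cd22 and Bank1 and in 13.67% of all windows. An ETS site of the PU.1 type, GAGGAA, lay in Cd79a and in the second Ebf1 window, and in 28.28% of all windows. None of the 7 windows held the octamer ATTTGCAT, which 1.74% of all windows held, or the PAX5 core GCGTGAC, which 2.09% held. The 4 windows with the E-box follow, 5′ to 3′ on the strand of each gene. They are Cd79a at chr7:24897247-24897546 (plus strand), Cd22 at chr7:30878979-30879278 (minus strand), Bank1 at chr3:136326017-136326316 (minus strand) and Cr2 at chr1:195176670-195176969 (minus strand). In Cd79a the capitals mark the E-box and, 14 bases further on, the ETS site on the other strand.
Cd79a: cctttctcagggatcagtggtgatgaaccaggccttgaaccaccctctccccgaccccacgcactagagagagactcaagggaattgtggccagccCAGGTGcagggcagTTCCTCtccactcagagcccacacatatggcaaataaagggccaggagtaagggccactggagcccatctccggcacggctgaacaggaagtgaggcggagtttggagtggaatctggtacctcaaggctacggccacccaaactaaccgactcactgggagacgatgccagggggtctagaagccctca
Cd22: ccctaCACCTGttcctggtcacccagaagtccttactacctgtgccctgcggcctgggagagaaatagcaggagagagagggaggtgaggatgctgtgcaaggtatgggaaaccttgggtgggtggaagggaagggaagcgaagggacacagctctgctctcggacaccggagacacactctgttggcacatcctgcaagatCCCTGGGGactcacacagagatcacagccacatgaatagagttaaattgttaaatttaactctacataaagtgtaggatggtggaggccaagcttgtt
Bank1: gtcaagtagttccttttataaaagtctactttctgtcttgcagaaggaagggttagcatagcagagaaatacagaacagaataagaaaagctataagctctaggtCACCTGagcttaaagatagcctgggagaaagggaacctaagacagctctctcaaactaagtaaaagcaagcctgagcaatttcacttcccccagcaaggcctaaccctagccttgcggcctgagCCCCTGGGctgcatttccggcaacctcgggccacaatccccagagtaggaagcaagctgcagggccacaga
Cr2: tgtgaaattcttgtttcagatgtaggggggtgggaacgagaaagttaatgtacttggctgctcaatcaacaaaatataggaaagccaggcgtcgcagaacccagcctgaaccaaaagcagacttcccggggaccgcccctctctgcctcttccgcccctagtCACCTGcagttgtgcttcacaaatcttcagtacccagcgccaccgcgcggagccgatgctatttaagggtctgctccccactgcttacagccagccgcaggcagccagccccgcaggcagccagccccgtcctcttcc
In the Cd22 window the capitals mark the E-box at -245 from the start and the EBF palindrome at -48, and in the Bank1 window they mark the E-box at -145 and the palindrome at -21. In the Cr2 window they mark the E-box at -88. These matches describe the letters of the windows, and binding was not measured.

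Values are the submitters' normalised gene counts, called signal here, and changes are log2 fold changes ± SE of signal + 1 from limma, with Benjamini-Hochberg adjustment over 21658 genes. Depth estimated from the smallest steps of the values ran from 4960000 to 56800000 reads per library, with WT hypoxia 4 the shallowest, and the thinnest measurement of any of the 9 genes, Blk in WT hypoxia 4, rested on about 31 reads. The 10 lung tissue genes, alveolar, airway, endothelial and macrophage markers, were at 0 in no library. Their summed signal was 498560.4 to 672796 in VIPKO hypoxia, 467629 to 726673 in VIPKO normoxia, 403362 to 808259.8 in WT hypoxia and 332785 to 464742 in WT normoxia. With hypoxia 0 of the 10 were called in VIPKO (1 at an unadjusted p under 0.05, median 0.18). In WT 4 rose, Sftpb, Foxj1, Sftpc and Sftpa1, markers of alveolar and ciliated airway cells, while the B cell genes fell. The list median in WT was 0.55, and 1707 of all 21658 genes tested were called higher there. The call of Sftpa1 was lost under 10 of 32 other settings and that of Sftpc under 4, quantile normalisation among them for both. The part of alveolar and ciliated airway cells in the B cell values was not tested. Vip did not follow the genotype labels. Its signal was 106 in the library labelled VIPKO hypoxia 4 and 93.0 in WT normoxia 5, and 12.7 or less in the other 18 libraries. Thymic epithelial and thymocyte genes summed to 16337 in VIPKO hypoxia 3, against 140 to 378 in the other libraries, and skeletal muscle genes summed to 27040 in WT hypoxia 5, against 38.8 to 755 in the others. Calls of the 9 genes are therefore also given without these libraries where they changed.

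Most of the B cell genes were lower after hypoxia in both genotypes. In VIPKO lungs 6 of the 9 fell, to between 35.1% (Pax5) and 43.4% (Ms4a1) of the normoxic level, and Cd79b, Cd22 and Ebf1 did not pass the test. In WT lungs 8 of the 9 fell, to between 44.3% (Pax5) and 60.9% (Cd22), and Cd79b did not pass. None of the 9 passed the test between the genotypes at either oxygen level. Over all genes tested, 0.997% were called for hypoxia in VIPKO and 0.383% were called lower, whereas in WT 14.7% were called and 6.77% were called lower. The median change of the 9 genes was -1.22 in VIPKO and -0.84 in WT, beside medians over all genes tested of -0.01 in each. After rescaling by the median ratio of genes between libraries, 6 of 9 were called in VIPKO and 8 of 9 in WT, and after quantile normalisation 7 and 8.

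**Figure D1:**
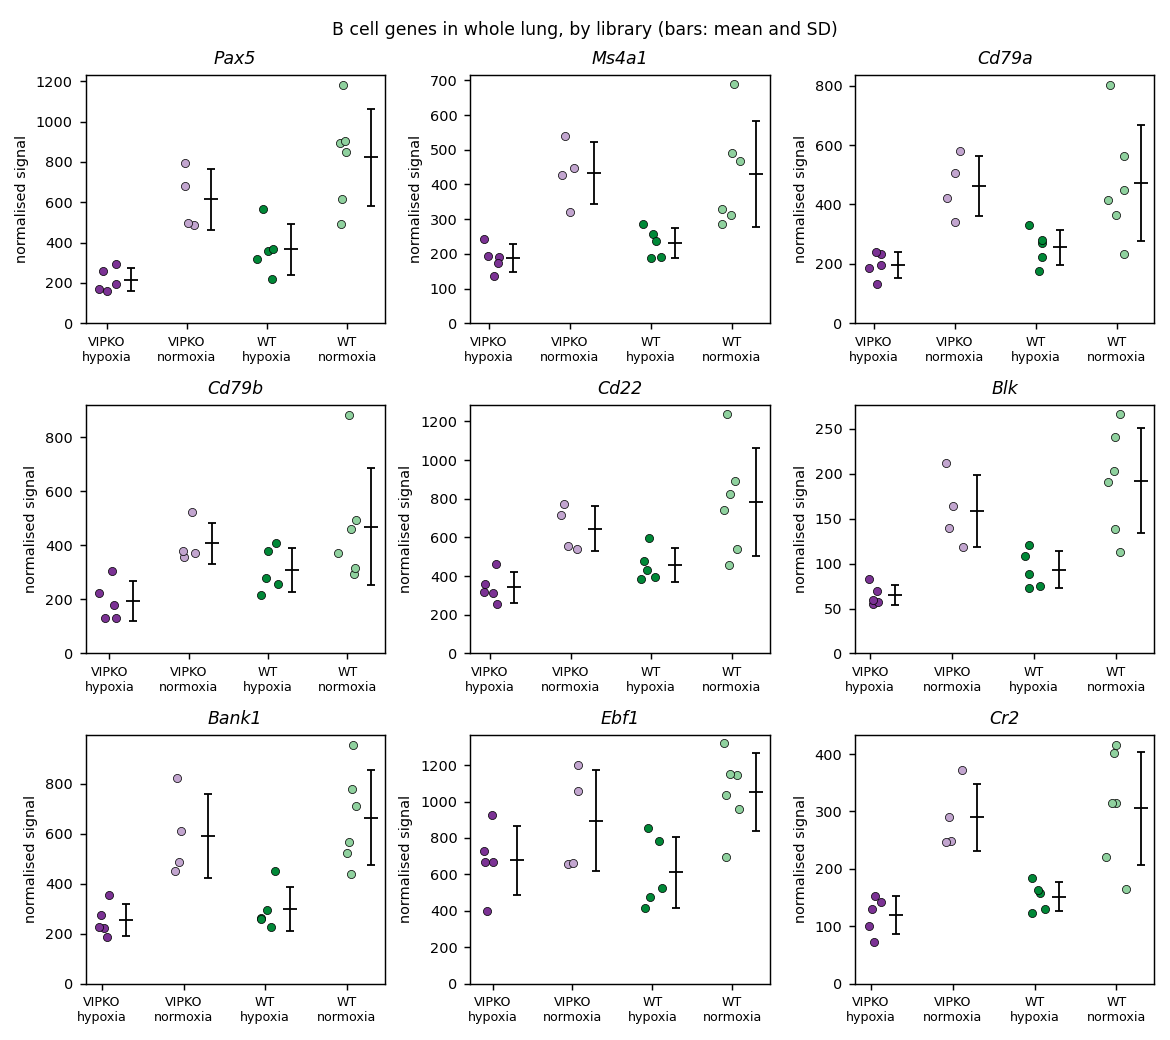
Normalised signal (vertical axes, linear and starting at 0) of the 9 B cell genes in the VIPKO hypoxia, VIPKO normoxia, WT hypoxia and WT normoxia libraries. Points are libraries and bars are the mean and SD of each group. For every gene but Ebf1, all 5 VIPKO hypoxia libraries lay below all 4 VIPKO normoxia libraries.

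**Figure D2:**
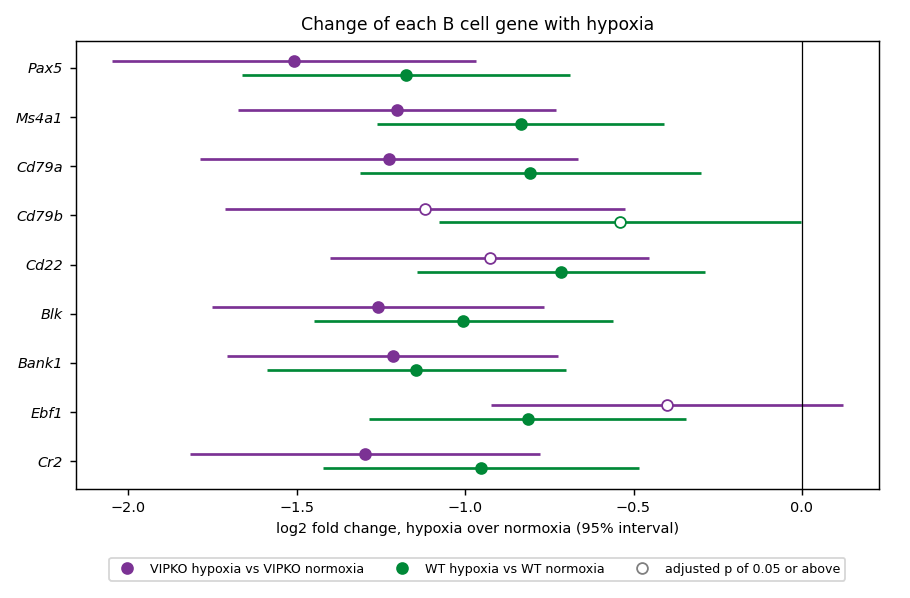
Change of each B cell gene with hypoxia as log2 fold change (horizontal axis) in VIPKO and in WT lungs. Lines are 95% intervals, filled points have an adjusted p under 0.05 and open points do not. The interval of Ebf1 in VIPKO lungs spans 0.

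Pax5 (chromosome 4, 44524757 to 44710487, minus strand, GRCm38) encodes the factor that commits lymphoid precursors to the B lineage. Its signal was 162, 295, 172, 192 and 260.2 in VIPKO hypoxia libraries 1 to 5 and 680.4, 487, 794 and 495 in VIPKO normoxia libraries 1 to 4. The highest hypoxic library lay well below the lowest normoxic one. The WT hypoxia libraries, 1 to 5, had 317, 221, 357, 568 and 368, and the 6 WT normoxia libraries had a lowest value of 493, a median of 869 and a highest of 1182. Here WT hypoxia 4 alone rose above the lowest normoxic library. The change was -1.51 ± 0.26 in VIPKO (adjusted p = 0.00457) and -1.18 ± 0.23 in WT (adjusted p = 0.00550), the largest fall among the 9 genes in each genotype.

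Ebf1 (chromosome 11, 44617317 to 45008091, plus strand) encodes an early B cell factor that acts together with PAX5, and it is also known from stromal cells, among them pericytes and precursors of fat cells. Its signal was 727, 924, 397, 669 and 667 in VIPKO hypoxia libraries 1 to 5, against 1057, 657, 1203 and 665 in VIPKO normoxia libraries 1 to 4. Both groups spread widely and overlapped, with VIPKO hypoxia 3 the lowest of all. It was 416, 525, 475, 855 and 784 in WT hypoxia libraries 1 to 5, and the WT normoxia libraries had a lowest value of 696, a median of 1092 and a highest of 1319.7. WT hypoxia libraries 4 and 5 lay inside the normoxic range and libraries 1 to 3 below it. Ebf1 fell in WT by 0.81 ± 0.23 on the log2 scale (adjusted p = 0.0234), and its value in VIPKO was -0.40 ± 0.25 (adjusted p = 0.512, 95% interval -0.92 to 0.12). Without WT hypoxia 1 or without WT hypoxia 3 the call in WT was lost.

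Cd79a (chromosome 7, 24897381 to 24902197, plus strand) and Cd79b (chromosome 11, 106311341 to 106314762, minus strand) encode the signalling pair of the B cell receptor. Cd79a signal was 131, 232, 241, 186 and 198 in VIPKO hypoxia libraries 1 to 5, against 505, 342, 579 and 422 in VIPKO normoxia libraries 1 to 4. Every hypoxic library was below every normoxic one. In WT hypoxia libraries 1 to 5 Cd79a signal was 224, 176, 269.8, 330.4 and 281, and the WT normoxia libraries had a lowest value of 232, a median of 432 and a highest of 804, so the WT groups overlapped. Cd79a fell in VIPKO, with a change of -1.23 ± 0.27 (adjusted p = 0.0300), and in WT, with a change of -0.81 ± 0.24 (adjusted p = 0.0324). The call in VIPKO was lost without any 1 of VIPKO hypoxia 1 and 5, VIPKO normoxia 1, 3 and 4 and the library labelled VIPKO hypoxia 4, the last with an adjusted p of 0.0715. The call in WT was lost without any 1 of WT hypoxia 1, 2 and 3 and WT normoxia 1, 2, 3 and 4.

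Cd79b signal was 133, 225, 305, 180.3 and 131 in VIPKO hypoxia libraries 1 to 5 and 356, 379, 522 and 374 in VIPKO normoxia libraries 1 to 4. These groups did not overlap, although VIPKO hypoxia 3 came close to the normoxic range. It was 258, 217, 380.4, 408.2 and 279 in WT hypoxia libraries 1 to 5, and the WT normoxia libraries had a lowest value of 295, a median of 416 and a highest of 883. The WT groups overlapped widely, and WT normoxia 1 stood far above the rest. Its values were -1.12 ± 0.29 in VIPKO (adjusted p = 0.0669) and -0.54 ± 0.26 in WT (adjusted p = 0.149, 95% interval -1.08 to -0.00). Neither passed the test, but without VIPKO hypoxia 3 Cd79b was called lower in VIPKO (-1.30, adjusted p = 0.0297), as it was without VIPKO hypoxia 2 (adjusted p = 0.0493) or without WT normoxia 1 (adjusted p = 0.0269).

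Cd22 (chromosome 7, 30865402 to 30880342, minus strand) encodes a sialic acid binding receptor that dampens B cell receptor signals. Its signal was 313, 359, 465, 318 and 254 in VIPKO hypoxia libraries 1 to 5, against 715, 540.0, 772 and 554 in VIPKO normoxia libraries 1 to 4. The groups did not overlap, and VIPKO hypoxia 3 was again the highest of the hypoxic libraries. It was 431, 396, 476, 599 and 386 in WT hypoxia libraries 1 to 5, and the WT normoxia libraries had a lowest value of 459, a median of 782 and a highest of 1237. Of the WT hypoxia libraries, 2 lay above the lowest normoxic one. Cd22 fell in WT (-0.72 ± 0.21, adjusted p = 0.0265), and its value in VIPKO was -0.93 ± 0.23 (adjusted p = 0.0534), whereas it was called in VIPKO without VIPKO hypoxia 3 (-1.04, adjusted p = 0.0335) and, with the change still -0.93, without any 1 of WT hypoxia 4 and WT normoxia 1 and 5 (adjusted p of 0.0269 to 0.0431). The call in WT was lost without any 1 of WT hypoxia 1, 2, 3 and 5 and WT normoxia 1, 2 and 4.

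Cr2 (chromosome 1, 195136811 to 195176716, minus strand) encodes complement receptor 2, a coreceptor carried by mature B cells and by follicular dendritic cells. Its signal was 101, 142, 72.3, 153 and 129 in VIPKO hypoxia libraries 1 to 5 and 289.9, 249, 373 and 247 in VIPKO normoxia libraries 1 to 4. A wide gap lay between the groups. It was 129.8, 157, 184, 163 and 123 in WT hypoxia libraries 1 to 5, and the WT normoxia libraries had a lowest value of 166, a median of 315 and a highest of 416. Only the lowest normoxic library, WT normoxia 5, fell inside the hypoxic range. Cr2 fell by 1.30 ± 0.25 in VIPKO (adjusted p = 0.0111) and by 0.95 ± 0.23 in WT (adjusted p = 0.0119) on the log2 scale.

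Ms4a1 (chromosome 19, 11249675 to 11266241, minus strand) encodes CD20, a membrane protein of B cells that plasma cells lack. Its signal was 136, 244, 194, 192 and 174 in VIPKO hypoxia libraries 1 to 5, against 447, 321, 539 and 428 in VIPKO normoxia libraries 1 to 4. All hypoxic libraries were below all normoxic ones. The WT hypoxia libraries, 1 to 5, had 190.0, 189, 286, 257 and 236, and the WT normoxia libraries had a lowest value of 285, a median of 399 and a highest of 689. The WT groups touched only where WT hypoxia 3 just passed the lowest normoxic library. Ms4a1 fell by 1.20 ± 0.23 in VIPKO (adjusted p = 0.00944) and by 0.84 ± 0.20 in WT (adjusted p = 0.0141) on the log2 scale.

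Blk (chromosome 14, 63372836 to 63417037, minus strand) encodes the B lymphoid kinase, and Bank1 (chromosome 3, 136053363 to 136326066, minus strand) encodes a scaffold that binds such kinases. Blk had the lowest signal of the 9 genes, with 55.3, 82.5, 57.2, 59.8 and 69.5 in VIPKO hypoxia libraries 1 to 5, against 139, 164, 212 and 119 in VIPKO normoxia libraries 1 to 4. Its VIPKO groups stood apart, and its VIPKO hypoxia libraries lay close to each other. It was 88.7, 72.8, 108, 121 and 75.4 in WT hypoxia libraries 1 to 5, and the WT normoxia libraries had a lowest value of 113, a median of 197 and a highest of 266. One WT library crossed over, WT hypoxia 4. Blk fell in VIPKO (-1.26 ± 0.24, adjusted p = 0.00944) and in WT (-1.01 ± 0.21, adjusted p = 0.00768).

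Bank1 signal was 224, 354, 187, 227 and 275 in VIPKO hypoxia libraries 1 to 5, against 609.9, 449.9, 822 and 486 in VIPKO normoxia libraries 1 to 4. No VIPKO hypoxia library reached the lowest normoxic one. It was 262, 257, 295, 451 and 227 in WT hypoxia libraries 1 to 5, and the WT normoxia libraries had a lowest value of 441, a median of 640.1 and a highest of 958. The WT groups overlapped by WT hypoxia 4 alone. Bank1 fell in VIPKO (-1.22 ± 0.24, adjusted p = 0.0121) and in WT (-1.15 ± 0.21, adjusted p = 0.00379).

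In VIPKO lungs, 8 of the 9 genes had hypoxia and normoxia libraries that did not overlap, Ebf1 being the exception, where 2.44% of all genes tested were lower in this way. In WT lungs 0 of the 9 were free of overlap, where 3.81% of all genes tested were. WT hypoxia 4, the shallowest library, was the highest of its group for 7 of the 9 genes. The VIPKO calls rested most on VIPKO normoxia 3, which was the highest of its group for all 9 genes and also had the highest mitochondrial ribosomal RNA signal of all libraries, 27208. Without it Pax5 alone was called (-1.38, adjusted p = 0.0306), although all 9 values stayed negative with a median of -1.09. The summed signal of the 2 mitochondrial ribosomal RNA genes was 4506 to 9415 in VIPKO hypoxia and 12034 to 27208 in VIPKO normoxia, and 396 to 7058 in WT hypoxia and 97.7 to 2075 in WT normoxia, so it separated the VIPKO groups and not the WT groups. This summed signal also separated the genotypes in normoxia. There the 2 genes were called higher in VIPKO with limma, by 4.49 and 5.06 (log2, adjusted p of 0.00179 to 0.00197). The part of mitochondrial ribosomal RNA in the B cell values was not tested. In WT, Pax5, Ms4a1, Blk, Bank1 and Cr2 were called in all 32 other settings, and 5 of the 9 genes were called without WT hypoxia 1 or without WT hypoxia 3.

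Between genotypes, none of the 9 genes passed the test. VIPKO against WT in normoxia gave 0 of 9 calls with limma, and 0 of 9 at an unadjusted p under 0.05, where 8.65% of all genes were called. Pax5 had the most negative value, -0.40 ± 0.25 (adjusted p = 0.337, 95% interval -0.92 to 0.12), and Ms4a1 the most positive, 0.06 ± 0.22 (95% interval -0.39 to 0.52). The means of Ms4a1 were 434 ± 89.3 in VIPKO normoxia (SD, n = 4) and 429 ± 153 in WT normoxia (SD, n = 6).

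VIPKO against WT in hypoxia also gave 0 of 9 calls, with 1.62% of all genes called and 3 of the 9 at an unadjusted p under 0.05. Those 3 were Pax5 with -0.73 ± 0.24 (adjusted p = 0.118), Cd79b with -0.70 ± 0.27 (adjusted p = 0.167) and Blk with -0.50 ± 0.22 (adjusted p = 0.226). Pax5 averaged 216 ± 58.4 in VIPKO hypoxia and 366 ± 127 in WT hypoxia (SD, n = 5 each). Values were negative for 8 of the 9 genes and 0.16 ± 0.24 for Ebf1 (95% interval -0.34 to 0.65), and the VIPKO and WT hypoxia libraries overlapped for every gene. Without VIPKO hypoxia 3, the median of the 9 was -0.45, against -0.37 with it, and again none was called.

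The response to hypoxia was compared between genotypes by the interaction, for which 0.282% of all genes and 0 of the 9 were called, also at an unadjusted p under 0.05. The differences, VIPKO minus WT, ran from -0.58 ± 0.38 for Cd79b (95% interval -1.38 to 0.22) to 0.41 ± 0.34 for Ebf1 (95% interval -0.29 to 1.12). For Pax5 the difference was -0.33 ± 0.35 (95% interval -1.06 to 0.39). The 2 hypoxia comparisons have no library in common.

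Between genes, levels were compared as signal per kb of merged exons. Cd79a and Cd79b were the first pair in all 4 groups and Cr2 was last in all 4. In VIPKO hypoxia the order was Cd79b (136 ± 50.9 per kb, SD, n = 5), Cd79a (136 ± 30.0), Ebf1 (69.4 ± 19.3), Cd22 (67.8 ± 15.5), Bank1, Ms4a1, Pax5 (24.4 ± 6.60), Blk and Cr2 (14.7 ± 4.05). Neighbours from Bank1 to Blk differed by less than the sum of their SDs, as did Cd79b and Cd79a, and Ebf1 and Cd22. In WT normoxia the order was Cd79b (328 ± 152 per kb, SD, n = 6), Cd79a (324 ± 134), Cd22 (155 ± 55.1), Ebf1 (108 ± 21.8), Pax5 (92.9 ± 27.3), Bank1, Blk, Ms4a1 and Cr2 (37.7 ± 12.1). No neighbours there differed by more than the sum of their SDs. VIPKO normoxia was the only group in which Cd79a came before Cd79b. Exons of Pax5 share 7.18% of their bases with 5730488B01Rik and 1.41% with Gm12462, and those of Cd22 share 9.50% with Gm29439, all on the opposite strand. The kit keeps strand, but whether counting used it is not given in the sources used here, so reads of these partners cannot be told apart from theirs.

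The 9 genes rose and fell together from library to library. Over the 20 libraries, the median Pearson's r of each gene with the other 8 was 0.85 to 0.91 for all but Ebf1, which had 0.71, with a low of 0.50 against Cd79b. After centring on group means these medians were 0.55 for Ebf1 and 0.58 to 0.80 for the others. All genes of a library share its depth and normalisation, so these values only describe the libraries. WT normoxia 1 was the highest of its group for 8 of the 9 genes and for all 17 T cell genes, and WT normoxia 5 the lowest for 8 of the 9 and for 14 of the 17.

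The named genes outside the 9 that followed them most closely were themselves mostly B cell genes. Against the mean z-score of the 9 over 20 libraries, the highest Pearson's r of those reported were for Bcl11a (0.97), a lymphoid transcription factor, Siglecg (0.97), an inhibitory lectin, Fcrla (0.96), and Pou2af1 (0.96), a coactivator of octamer factors. They were followed by Cacna1i (0.96), a calcium channel gene, Fcer2a (0.95), which encodes CD23, Pou2f2 (0.95), Btla (0.94) and Fcmr (0.93), the IgM Fc receptor. With group means removed, r was 0.80 to 0.94 for these 9 genes. Cacna1i was the member of this set that was on no list of B cell genes, and it fell in VIPKO by 1.51 (adjusted p = 0.0185) and in WT by 1.39 (adjusted p = 0.00554) on the log2 scale. The call in VIPKO was lost without VIPKO normoxia 3 or without the library labelled VIPKO hypoxia 4.

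Ebf1 was followed most closely by other genes, none of them on the lists of B cell genes. The highest r with Ebf1 alone were those of Clstn2 (0.91), Gdpd3 (0.90), Mylk (0.90), a kinase gene of smooth muscle contraction, Cacna1c (0.89) and Adcy8 (0.89). Pericyte genes differed widely in how they followed Ebf1. Over the 12 on the list, r with Ebf1 ran from -0.45 to 0.86 and r with Pax5 from -0.81 to 0.64. The highest 2 with Ebf1 were Pdgfrb, the platelet-derived growth factor receptor of pericytes (0.86, against 0.64 for Pax5), and Gucy1a1, a guanylate cyclase subunit (0.86, against 0.60 for Pax5). The lowest 3 with Ebf1 were Rgs5 (-0.45), Higd1b (-0.19) and Kcnj8 (-0.0037), and Ndufa4l2 had 0.24 and Abcc9 0.40. With group means removed, r with Ebf1 was 0.26 to 0.86 over the 12 and r with Pax5 -0.05 to 0.72, with 0.86 and 0.69 for Pdgfrb and 0.85 and 0.72 for Gucy1a1. Pdgfrb signal was 3468, 3376, 2298, 3401 and 3674 in VIPKO hypoxia libraries 1 to 5 and 3994, 2846, 4221 and 2735 in VIPKO normoxia libraries 1 to 4. The WT hypoxia libraries, 1 to 5, had 1688, 2868, 3081, 5465 and 3724, and the WT normoxia libraries had a lowest value of 2731, a median of 5018 and a highest of 5639.7. The Pdgfrb values were -0.08 ± 0.25 in VIPKO (adjusted p = 0.922) and -0.54 ± 0.23 in WT (adjusted p = 0.106), so neither passed. WT hypoxia 1 and VIPKO hypoxia 3 had the lowest Pdgfrb and the 2 lowest Ebf1 values. Of the 12 pericyte genes 1 rose in each genotype, Rgs5, a regulator of G protein signalling, by 2.88 ± 0.35 in VIPKO (adjusted p = 0.000119) and 1.75 ± 0.31 in WT (adjusted p = 0.00302) on the log2 scale. The summed signal of the 12 was 15425 to 28244 in VIPKO hypoxia, 18247 to 24772 in VIPKO normoxia, 11577 to 33845 in WT hypoxia and 20772 to 27836 in WT normoxia, with none of them at 0. The part of pericytes in the Ebf1 values was not tested.

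**Figure D3:**
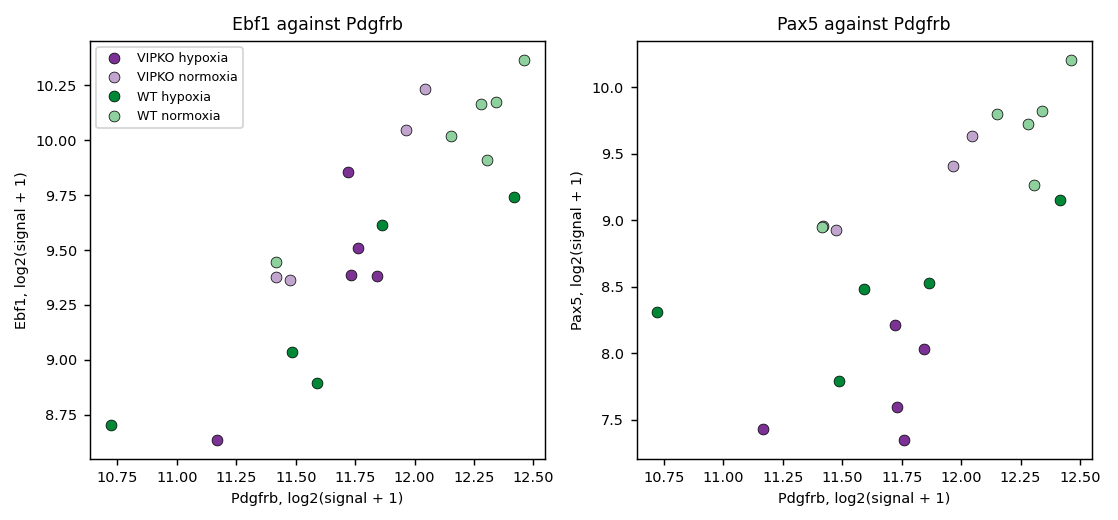
Ebf1 (left) and Pax5 (right) against Pdgfrb, the pericyte gene with the highest r with Ebf1 of 12, in each of 20 libraries, as log2(signal + 1) on both axes, coloured by group. Ebf1 lies closer to a line (r = 0.86) than Pax5 (r = 0.64). Pax5 signal was 162 to 295 in VIPKO hypoxia, and WT hypoxia 2, with 221, lies among those libraries. Over the 12 pericyte genes, r with Ebf1 ran from -0.45 to 0.86.

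Most calls among other B cell genes were also falls. Of a list of 28, 10 fell and 0 rose in VIPKO hypoxia, and 16 fell and 2 rose in WT hypoxia, with medians of -0.96 in VIPKO and -0.69 in WT. In VIPKO the falls with the smallest adjusted p were Pou2f2 (-1.27 ± 0.24, adjusted p = 0.0111), which encodes OCT2, Bcl11a (-1.22 ± 0.24, adjusted p = 0.0136), Btla (-1.14 ± 0.23, adjusted p = 0.0182), an inhibitory receptor, and Fcrla (-1.23 ± 0.25, adjusted p = 0.0189). In WT those reported here were Bcl11a (-1.35 ± 0.22, adjusted p = 0.00178), Cxcr5 (-1.32 ± 0.23, adjusted p = 0.00240), the receptor that guides B cells to follicles and Fcer2a (-1.25 ± 0.26, adjusted p = 0.00756).

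Bcl11a signal was 162, 225, 151, 131 and 141 in VIPKO hypoxia libraries 1 to 5, against 434, 334, 465 and 282 in VIPKO normoxia libraries 1 to 4. It had 158, 171, 201, 284 and 184 in WT hypoxia libraries 1 to 5, and the WT normoxia libraries had a lowest value of 281, a median of 562 and a highest of 747. The VIPKO groups did not overlap, and in WT only WT hypoxia 4 passed the lowest normoxic library. The 2 genes that rose in WT are named because they were the exceptions, after their values were seen. They were Vpreb3 (0.94 ± 0.25, adjusted p = 0.0203) and Cd24a (0.48 ± 0.13, adjusted p = 0.0223), the latter also expressed by many epithelial cells. Both calls were lost without WT hypoxia 1 or without WT hypoxia 3, and that of Cd24a also without WT normoxia 4. Between genotypes Cd24a was the 1 gene of the 28 called, higher in VIPKO normoxia at 4342 ± 709 (SD, n = 4), against 3042 ± 363 in WT normoxia (SD, n = 6), with a difference of 0.51 ± 0.14 (adjusted p = 0.0291). This call was lost without any 1 of VIPKO normoxia 2, 3 and 4 and WT normoxia 3 and 4. Without VIPKO hypoxia 3, 9 of the 28 were called lower for hypoxia in VIPKO and 1 was called lower in VIPKO against WT in hypoxia. In VIPKO the value of Vpreb3 was -0.60 ± 0.28 (adjusted p = 0.369), and its interaction was -1.54 ± 0.38 (adjusted p = 0.0756), which did not pass. The VIPKO calls of Btla and Fcrla were lost without VIPKO hypoxia 1, and those of all 4 named genes without VIPKO normoxia 3. The VIPKO count dropped to 0 without VIPKO normoxia 3, to 2 without VIPKO hypoxia 1, to 4 without the library labelled VIPKO hypoxia 4, to 5 without VIPKO normoxia 1 and to 6 without VIPKO hypoxia 5. The WT count dropped to 8 without WT hypoxia 1.

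Over all genes tested, 0.383% were called lower for hypoxia in VIPKO and 6.77% in WT. A further list held genes of B cell receptor signalling that other blood cells share. Of 20 on that list, 1 fell in VIPKO hypoxia, Blnk (-1.04 ± 0.22, adjusted p = 0.0247), the linker that joins the receptor to its kinases, and 1 fell in WT hypoxia, Nfatc1 (-0.31 ± 0.09, adjusted p = 0.0312). The call of Blnk was lost without VIPKO normoxia 3 or without VIPKO hypoxia 1, and that of Nfatc1 without any 1 of WT hypoxia 1 and 3 and WT normoxia 1, 2 and 4. Without VIPKO hypoxia 3, which shares in the estimate of spread, 3 of the 20 were called lower in WT. The median of the 20 was -0.10 in VIPKO and -0.16 in WT. In WT the value of Blnk was -0.39 ± 0.20 (adjusted p = 0.178). Ptprc, the leukocyte common antigen CD45, had -0.22 ± 0.19 in VIPKO (adjusted p = 0.650) and -0.47 ± 0.18 in WT (adjusted p = 0.0753) and passed in neither. Between genotypes, Cd81, a tetraspanin of the B cell coreceptor, was lower in VIPKO normoxia (-0.35 ± 0.08, adjusted p = 0.0165), and Fyn, a kinase of the SRC family, was higher in VIPKO hypoxia (0.39 ± 0.09, adjusted p = 0.0336). The call of Cd81 was lost without VIPKO normoxia 2 and that of Fyn under 11 of 32 other settings.

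Over all genes tested, 0.997% were called for hypoxia in VIPKO and 14.7% in WT. The plasma cell list had a median of -0.22 in VIPKO hypoxia and -0.01 in WT hypoxia, and its calls in WT went both ways. Of 9 tested of 10, 1 fell in VIPKO hypoxia, Prdm1 (-0.88 ± 0.21, adjusted p = 0.0484), which encodes BLIMP1, while in WT hypoxia 1 rose, Sdc1 (0.62 ± 0.15, adjusted p = 0.0134), a syndecan that lung epithelium also makes, and Prdm1 fell (-0.64 ± 0.19, adjusted p = 0.0302). The call of Prdm1 in VIPKO was lost under 21 of 32 other settings, and that in WT without any 1 of WT hypoxia 1 and 2 and WT normoxia 1, 2, 3 and 6. Jchain, the chain that joins polymeric IgA and IgM, had a signal of 121, 396, 572, 1271 and 364 in VIPKO hypoxia libraries 1 to 5 and 255, 623, 675 and 522 in VIPKO normoxia libraries 1 to 4. It had 103, 580.3, 650.2, 1221 and 1115 in WT hypoxia libraries 1 to 5, and the WT normoxia libraries had a lowest value of 77.4, a median of 172 and a highest of 753. All groups spread many-fold and overlapped, and the Jchain values were -0.22 ± 0.69 in VIPKO (adjusted p = 0.921) and 1.45 ± 0.62 in WT (adjusted p = 0.111). Of 10 germinal centre genes 7 could be tested, with 0 called in VIPKO hypoxia (0 at an unadjusted p under 0.05) and 1 lower in WT hypoxia, Mki67 (-0.82 ± 0.24, adjusted p = 0.0275), which marks any dividing cell. Its call was lost without any 1 of WT hypoxia 1, 2 and 3 and WT normoxia 6. Between genotypes Mki67 was higher in VIPKO hypoxia (1.14 ± 0.25, adjusted p = 0.0265), at 876 ± 356 against 384 ± 122 in WT hypoxia (SD, n = 5 each). That call was lost without WT hypoxia 1, 2 or 3, VIPKO hypoxia 5 or the library labelled VIPKO hypoxia 4. In VIPKO normoxia against WT normoxia, Fas, a death receptor gene, was higher (0.63 ± 0.16, adjusted p = 0.0191) and S1pr2, a sphingosine phosphate receptor gene, was lower (-0.47 ± 0.12, adjusted p = 0.0227), both calls being lost without VIPKO normoxia 2 or 3 and that of Fas also without VIPKO normoxia 4.

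Of 11 tested genes for B cell attraction and survival, 2 rose in each genotype and none fell. Over all 21658 genes tested, 133 were called higher for hypoxia in VIPKO and 1707 in WT. Ccl21a, a chemokine of lymphatic endothelium that draws cells bearing CCR7, had a signal of 2752, 2464, 3692, 3748 and 3466 in VIPKO hypoxia libraries 1 to 5, against 1148, 897, 873 and 1244 in VIPKO normoxia libraries 1 to 4. It had 1249, 2358, 2001, 2990.0 and 2180.3 in WT hypoxia libraries 1 to 5, and the WT normoxia libraries had a lowest value of 638, a median of 883 and a highest of 1004. Neither pair of groups overlapped, and the change was 1.63 ± 0.20 in VIPKO (adjusted p = 0.000129) and 1.28 ± 0.18 in WT (adjusted p = 0.000832). Cxcl12, the ligand of CXCR4, rose by 1.36 ± 0.18 in VIPKO (adjusted p = 0.000222) and by 0.66 ± 0.16 in WT (adjusted p = 0.0133) on the log2 scale. Cxcl13, the ligand of CXCR5, had -0.29 ± 0.57 in VIPKO (adjusted p = 0.865) and 0.10 ± 0.51 in WT (adjusted p = 0.910).

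T cell genes were set beside the 9 as the other large group of lung lymphocytes. Of 17, 0 were called with limma in either hypoxia comparison, and 0 had an unadjusted p under 0.05. Their median was 0.04 in VIPKO and -0.41 in WT, where 16 of the 17 values were negative. The WT test shares its estimate of spread with VIPKO hypoxia 3, the highest of its group for all 17. The 0 calls therefore do not show that T cell genes stayed level in WT. The VIPKO median moved to -0.65, with 16 of 17 values negative and 0 called, without VIPKO hypoxia 3, the library with the thymic signal. The summed T cell signal was 1293 to 18703 in VIPKO hypoxia, where the next highest library had 1791, 1906 to 2529 in VIPKO normoxia, 1312 to 2195 in WT hypoxia and 1453 to 3379 in WT normoxia. Without VIPKO hypoxia 3, 8 of the 9 B cell genes were called lower in VIPKO, with a median of -1.22. The difference between the changes of B cell and T cell genes was not tested.

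**Figure D4:**
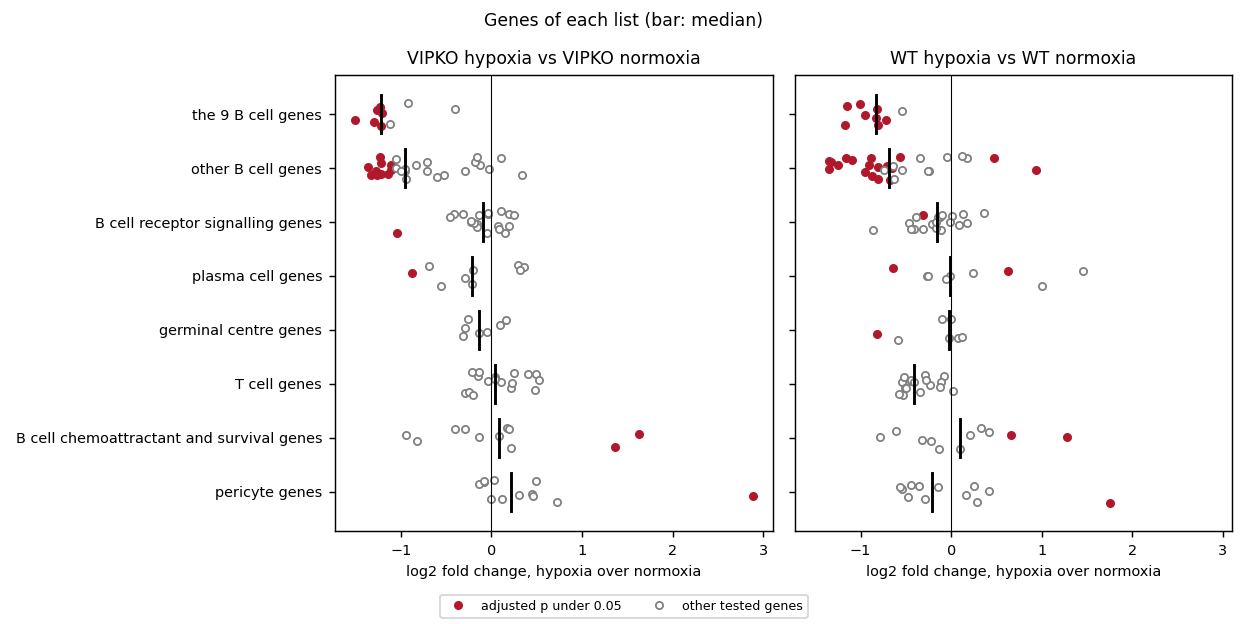
Log2 fold change with hypoxia (horizontal axes, the same in both panels) of each tested gene in 8 lists, in VIPKO (left) and WT (right) lungs. Red points have an adjusted p under 0.05, open points do not, and black bars are list medians. The 9 B cell genes and the 28 other B cell genes sit furthest to the left, with list medians of -1.22 and -0.96 in VIPKO and -0.84 and -0.69 in WT.

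**Figure D5:**
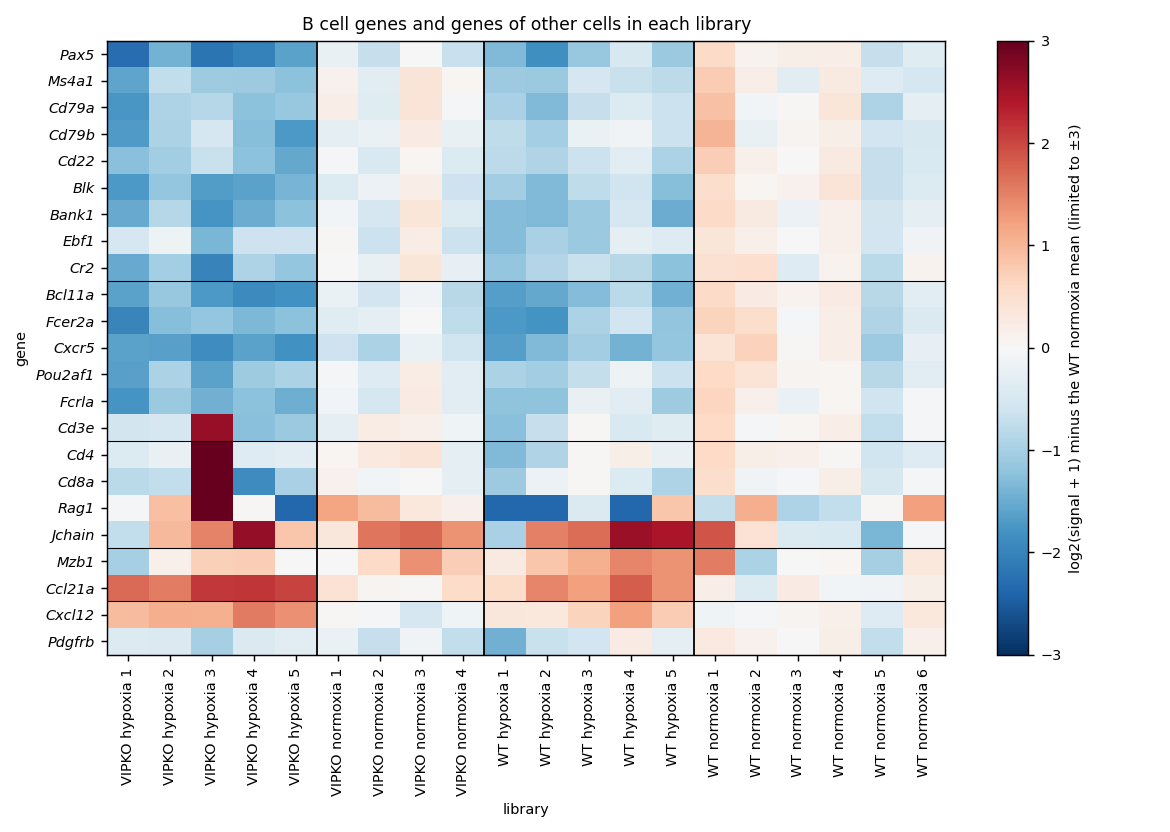
Log2(signal + 1) minus the WT normoxia mean (colour, limited to 3 either way) for the 9 B cell genes and 14 genes of other lists (rows) in 20 libraries (columns). Vertical lines lie between groups. The first horizontal line lies below the 9 genes, and the lower horizontal lines do not mark the limits of lists. The 14 were chosen for display after their values were seen. The B cell rows are blue in both hypoxia groups, and the T cell rows and Rag1 are deep red in VIPKO hypoxia 3 alone.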

How the data were processed

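Total RNA of whole lung was made into libraries with a directional kit, per the labels' protocols, and reads were processed in Partek against mm10, per the submitters' processing notes. The deposited table holds normalised gene counts, used here as a signal per gene and library. How reads were aligned, counted by strand and normalised, and with which Partek release, is not given in the sources used here. Of the table's 30746 lines, 55 without a gene name (0.0187% of the signal or less) were left out, and 133 lines repeat an earlier name. Depth was estimated by taking the most common low value of a library as 1 read. Low values (up to 20 steps) lay within 0.05 of a whole number of steps for 81.9% to 89.1% of values in 19 libraries and 41.1% in VIPKO hypoxia 2, so the table was not turned back into reads or given a count model.

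The scale is log2(signal + 1), on which fold changes of low genes are understated. A gene entered with a signal of 10 or more in 4 or more libraries (21658 genes). All 20 libraries shared a limma 3.58.1 fit (R 4.3.3) of 4 group means, with a variance trend, Benjamini-Hochberg adjustment over all genes tested, a threshold of 0.05 and 5 contrasts. The 9 genes and the 14 lists (164 genes) were chosen with earlier results of these data known. Genes outside the 9 were named by rule: up to 4 called per list and contrast by smallest adjusted p, or up to 2 as values where none was called, and the 10 genes most like the mean z-score of the 9 and the 5 most like Ebf1. Exceptions are marked in the text, and some genes the rule picked are not reported here. Exon lengths and positions come from GENCODE vM21 (GRCm38) and promoter windows from RefSeq (GRCm38.p6). The steps were tested on simulated data. Alternatives covered the pseudocount (0.5 or 5), the filter (none, or at least 50), rescaling, quantile normalisation, the variance trend, library weights, the groups compared alone, a block for the replicate number, and libraries left out. Python 3.11.15, pandas 2.3.3, numpy 2.4.6 and matplotlib 3.10.9 were used for tables and plots.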

Additional observations from a re-analysis of the deposited data

Results flagged for a closer look

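Each of the 9 genes was checked for a library far from the others in each of the 4 groups, 36 checks in all, of which chance flags about 1 in 20. Cd79b stood out in 2 of them. In VIPKO normoxia 3 its signal was 521.9, against 379 in the next highest library of the group, and this library was the highest of its group for all 9 genes. In WT normoxia 1 its signal was 883, against 492.8 in the next highest, and this library was the highest of its group for 8 of the 9 genes. Without VIPKO normoxia 3 the Cd79b change with hypoxia in VIPKO was -0.995 (adjusted p = 0.245), against -1.12 (adjusted p = 0.0669) with it.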

How the results depend on the processing

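No B cell gene changed direction in any hypoxia comparison, in VIPKO (log2 values of -1.63 to -0.22) or in WT (-1.38 to -0.34), under 12 alternatives or any left-out library, with 32 settings in each, nor did any in VIPKO against WT in hypoxia. B cell genes called in VIPKO were 3 with the replicate block and 0 without the trio of VIPKO hypoxia 2 and of VIPKO normoxia 2 and 3, and 1 to 8 with 1 library left out. The trio holds 2 of the 4 VIPKO normoxia libraries, so a fit without it could see less. Without the trio Pax5 had an adjusted p of 0.0611 with limma. In WT the B cell genes called were 6 with the replicate block and 5 to 8 with 1 library left out. Residual correlations showed no clear pairing by replicate number. Same-numbered libraries of different groups had -0.29 to 0.41 over 27 pairs, 7 of them above 0.1. Their median was -0.018, against 0.0079 for pairs with different numbers. Of the 20 libraries, 7 correlated best with their own number, so some pairing is not excluded. The cause of these moves was not tested.

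Genes called over the whole table moved more. With library weights they were 5448 (VIPKO against WT in normoxia), 717 (hypoxia in VIPKO), 6590 (hypoxia in WT), 1926 (VIPKO against WT in hypoxia) and 2228 (interaction), and with the replicate block 682, 90, 1544, 149 and 0 in that order. Leaving out the trio named above gave 0 (VIPKO against WT in normoxia), 44 (hypoxia in VIPKO), 28 (VIPKO against WT in hypoxia) and 0 (interaction). Without WT hypoxia 5 and VIPKO hypoxia 3 together they were 1065 (VIPKO against WT in hypoxia) and 304 (interaction). In VIPKO against WT in hypoxia they were 225 with no filter, 222 with no variance trend and 10 with only the groups compared, which also gave 136 for hypoxia in VIPKO. The interaction had 12 with no variance trend. With 1 library left out they ran from 358 to 2549 for VIPKO against WT in normoxia, 88 to 389 for hypoxia in VIPKO, 1381 to 4711 for hypoxia in WT, 4 to 544 for the interaction and 35 to 1348 for VIPKO against WT in hypoxia.

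The values that changed sign were called under no setting. In VIPKO against WT in normoxia, Ms4a1 was -0.12 and Cd79a -0.23 with library weights, and -0.086 and -0.072 with the replicate block. With 1 library left out, Ms4a1 ran from -0.050 to 0.21, Cd79a from -0.14 to 0.22, Cd79b from -0.24 to 0.086 and Cr2 from -0.19 to 0.076. The interaction of Bank1 was 0.17 with library weights, 0.055 with the replicate block and -0.20 to 0.10 with 1 library left out. Group sizes of 4 to 6 and depths down to 4960000 reads limit what differences could be seen.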

Other observations

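Cell types that share Ebf1 or Cr2 with B cells were also read. Fat cell genes were higher after hypoxia in WT, where 8 of 11 were called with a median of 3.04 on the log2 scale, and 0 of 11 were called in VIPKO with limma (0 at an unadjusted p under 0.05), where the median was 0.95. None of the 11 was called for the interaction (6 at an unadjusted p under 0.05). Without VIPKO hypoxia 3, the library with the thymic signal, 2 of the 11 were called lower for the interaction. Their summed signal was 1403 to 6684 in VIPKO hypoxia, 1176 to 3067 in VIPKO normoxia, 1499 to 22995 in WT hypoxia and 622 to 1374 in WT normoxia. The highest sum was that of WT hypoxia 5, the library with the skeletal muscle signal, and the next highest of its group was 5132. In WT the calls with the smallest adjusted p were Retn (4.98 ± 0.69, adjusted p = 0.000817), which encodes resistin, and Cfd (5.52 ± 0.80, adjusted p = 0.00117), which encodes adipsin. Ebf2, a paralogue of Ebf1 known from fat precursors, rose in WT (2.33 ± 0.64, adjusted p = 0.0225), a call lost without WT hypoxia 5.

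Of 5 follicular dendritic cell genes tested of 7, 0 were called in VIPKO hypoxia (2 at an unadjusted p under 0.05) and 3 rose in WT hypoxia, whereas Cr2 fell in both genotypes. The 3 were Prnp, the prion protein gene (0.69 ± 0.12, adjusted p = 0.00265), Clu, which encodes clusterin (0.45 ± 0.12, adjusted p = 0.0203), and Sox9 (1.70 ± 0.55, adjusted p = 0.0428), and other lung cells express all 3. The calls of Clu and Sox9 were lost without any 1 of WT hypoxia 1, 3 and 5, and that of Sox9 under 13 of 32 other settings.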
